A study of Homo sapiens with 6 samples.

Results

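The CEACAM genes examined here are 9 of the 58096 gene rows of the count table: CEACAM1, CEACAM3, CEACAM4, CEACAM5, CEACAM6, CEACAM7, CEACAM8, CEACAM19 and CEACAM21. They were taken by Ensembl identifier, and each symbol gave 1 row. The list was drawn up with the difference between these libraries already known, so the levels and fold changes of the 9 genes are a description and carry no test. Messenger RNA was sequenced from SH-SY5Y, a human neuroblastoma line that the labels call a neuronal progenitor, 48 h after 2 ul of an adenovirus carrying either GFP (group GFP, 3 libraries) or PGC-1a (group PGC1A, 3 libraries). All 6 libraries thus came from cells given adenovirus. The labels give no virus titre, no promoter and no species for the PGC-1a insert. Uninfected cells were not analysed here, and the dose of virus cannot be told apart from PGC-1a. Whether replicates were grown as separate cultures is not stated, and p-values therefore cover the spread between these libraries, which may be technical.

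CEACAM proteins (carcinoembryonic antigen-related cell adhesion molecules) are cell-surface members of the immunoglobulin superfamily. They bind each other between neighbouring cells, serve as docking sites for several bacteria, and pass signals through either an inhibitory tyrosine motif (ITIM) or an activating one (ITAM), while others are held in the membrane by a glycosylphosphatidylinositol (GPI) lipid anchor. They are best known from gut and other epithelia, from granulocytes and, for CEACAM5, as a tumour marker in blood. PGC-1a, encoded by PPARGC1A, is a coactivator that works through nuclear receptors such as the estrogen-related receptors.

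The libraries held 24988743 to 31762496 counts assigned to genes. PPARGC1A rose as labelled, from 98 to 135 counts per GFP library to 103737 to 109350 per PGC1A library. Correlations of log2 CPM (TMM-scaled counts per 1000000 counts) across genes were 0.995 to 0.996 within groups and 0.892 to 0.895 between them, and no library stood apart from its group. Most genes differed: of 19343 tested, 83.0% passed an adjusted p of 0.05 in edgeR's quasi-likelihood test, 40.9% higher and 42.1% lower in PGC1A (7909 and 8148 genes). Scaling by total counts alone gave 5778 higher and 10743 lower. Of 14 tested markers of sympathetic neuroblastoma identity, 13 were lower and 0 higher in PGC1A (median log2 fold change −1.40 against −0.03 over all genes tested). In GFP the regulator HAND2 of that list was at 252 CPM and the noradrenaline enzyme gene DBH at 127 CPM, whereas TH, for tyrosine hydroxylase, had no counts. In PGC1A TH had 21 counts.

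The 9 CEACAM genes together had 63, 70 and 63 counts in GFP and 1825, 1684 and 1691 in PGC1A. As summed CPM this was 2.04 ± 0.246 in GFP and 66.2 ± 2.13 in PGC1A (SD, n = 3). CEACAM1 and CEACAM5 held 92.7% to 94.9% of the PGC1A counts. Of the 9 genes, 7 were higher in every PGC1A library than in any GFP library, 1 (CEACAM19) was lower, and CEACAM3 overlapped; among all protein-coding genes of the table, 33.9% were higher and 35.0% lower without overlap. Of the 6 that had enough counts to be tested, 5 were called higher and 1 lower, beside the 40.9% and 42.1% above, but since the list was chosen on this contrast nothing is read from these counts. In bulk RNA, more cells with a transcript and more transcript per cell cannot be told apart.

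**Figure D1:**
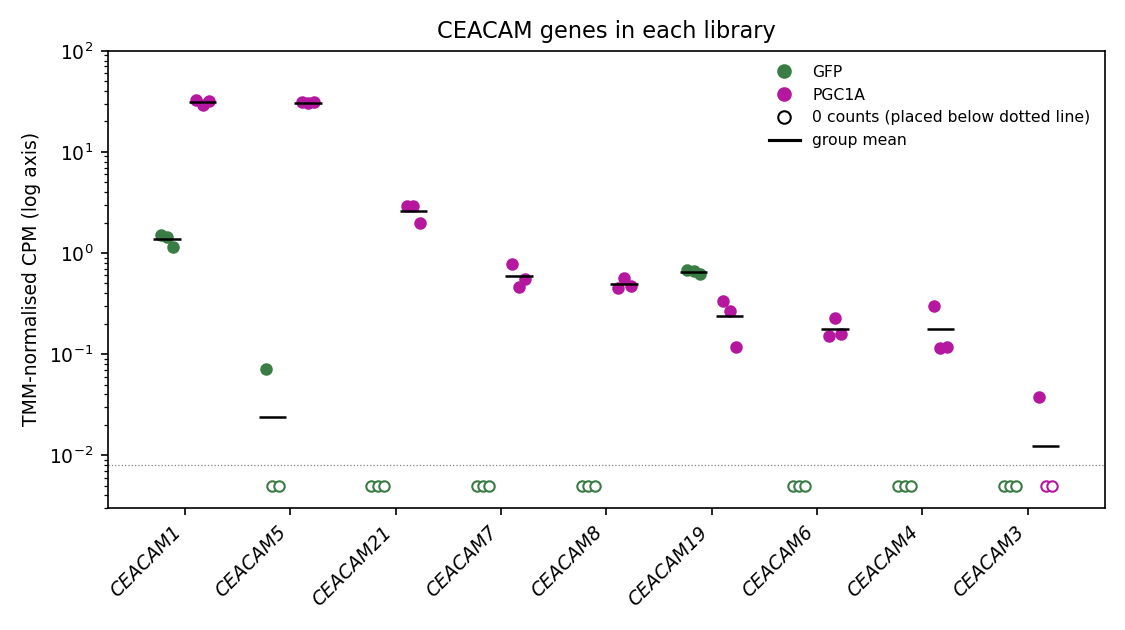
TMM-normalised CPM (log axis) of the 9 CEACAM genes in each of the 3 GFP and 3 PGC1A libraries, with the group mean as a bar and libraries without counts as open circles below the dotted line. CEACAM1 and CEACAM5 reach about the same CPM in PGC1A, 31.2 and 30.7, but differ in GFP, where CEACAM5 has counts in 1 library.

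CEACAM1 (ENSG00000079385.21, chromosome 19, 42507304 to 42561234, GRCh38, minus strand) encodes the family's broadly expressed transmembrane receptor, whose long form carries ITIMs that recruit the phosphatases SHP-1 and SHP-2. GFP replicates 1 to 3 had 42, 48 and 41 counts, and PGC1A replicates 1 to 3 had 864, 771 and 814. It was thus present at a low level in every GFP library, and the lowest PGC1A library stood far above the highest GFP library. The mean level went from 1.37 ± 0.187 CPM to 31.2 ± 1.64 CPM (SD, 3 libraries each), which the edgeR fit gives as a log2 fold change of 4.52 (SE 0.09). Of the genes tested, 1.84% had a larger one. LIPE-AS1, a noncoding gene on the opposite strand, covers 3.35% of the exon bases of CEACAM1 and the libraries kept strand information, per the labels, but whether the counting used it is not stated. LIPE-AS1 itself had 52 counts over the GFP and 64 over the PGC1A libraries (log2 fold change 0.60, adjusted p = 0.0353, edgeR), a call lost under 10 alternatives.

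The GPI-anchored members were led by CEACAM5 (ENSG00000105388.15, chromosome 19, 41708585 to 41729798, plus strand), the carcinoembryonic antigen of colon epithelium and of many carcinomas. GFP replicates 1 to 3 had 2, 0 and 0 counts, against 828, 794 and 790 with PGC-1a. In GFP it was at or below the limit of detection, and in PGC1A it was among the most even members between libraries. The PGC1A mean was 30.7 ± 0.460 CPM (SD, n = 3). With 2 counts over the whole GFP group, the ratio of PGC1A to GFP was 1486, with a 95% exact counting interval of 411 to 12270. The PGC1A libraries ranged from 30.2 to 31.0 CPM.

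CEACAM7 (ENSG00000007306.14), found on the apical surface of colon epithelium, had no counts in GFP and 21, 12 and 14 in PGC1A. CEACAM8 (ENSG00000124469.11), the granulocyte surface antigen CD66b, had no counts in GFP and 12, 15 and 12 in PGC1A. CEACAM6 (ENSG00000086548.8), shared by granulocytes and epithelia, had no counts in GFP and 4, 6 and 4 in PGC1A. All 3 were present in each PGC1A library at a small fraction of the level of CEACAM5. Against a floor of 3 counts over the GFP group (0.0310 CPM), CEACAM7 was 19.3-fold, CEACAM8 16.0-fold and CEACAM6 5.75-fold higher in PGC1A. Such folds take the PGC1A counts as observed and leave out their own counting error, so they are no strict bounds. PCR copies were not marked. CEACAM6 lies 21.2 kb from the end of CEACAM5 and on the same strand, yet the CEACAM5 mean in PGC1A was 30.7 CPM and that of CEACAM6 was 0.178 ± 0.0433 CPM.

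CEACAM3 and CEACAM4 are granulocyte receptors with an ITAM in the cytoplasmic part, and CEACAM3 is known for the uptake of bacteria by neutrophils. CEACAM4 (ENSG00000105352.10) had no counts in GFP and 8, 3 and 3 in PGC1A, 5.75-fold above the GFP floor. Its 0.177 ± 0.106 CPM in PGC1A rested on 14 counts, 8 of them in replicate 1. CEACAM3 (ENSG00000170956.16) had 1 count in the 6 libraries, in PGC1A replicate 1, so no change was detectable at this depth and no fold is given.

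CEACAM21 and CEACAM19 encode transmembrane members whose functions are less well known. CEACAM21 (ENSG00000007129.17), at the end of the cluster, had no counts in GFP and 78, 76 and 51 in PGC1A. It was the third most abundant member in PGC1A, at 2.6 ± 0.521 CPM (SD, n = 3), 84.2-fold above the GFP floor. Replicate 3 was the lowest of the PGC1A libraries. CEACAM19 (ENSG00000186567.12, chromosome 19, 44662278 to 44684359, plus strand) went the other way, with 19, 22 and 22 counts in GFP and 9, 7 and 3 in PGC1A. Its GFP libraries lay close together and above every PGC1A library. The mean was 0.653 ± 0.0312 CPM in GFP and 0.240 ± 0.112 CPM in PGC1A, a ratio of 0.372 with a 95% exact counting interval of 0.210 to 0.629, and a log2 fold change of −1.41 in the edgeR fit (SE 0.35).

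Levels were set in order per exon length, as CPM per 1000 exon bases (RPKM). In PGC1A CEACAM5 stood at 9.16 ± 0.137 RPKM, above CEACAM1 at 5.64 ± 0.296 and CEACAM21 at 1.32 ± 0.266 (SD, n = 3). Per exon length there was 1.63 ± 0.0631 times as much CEACAM5 as CEACAM1 in the PGC1A libraries, although their counts were nearly equal. Then came CEACAM7 at 0.225 ± 0.0641, CEACAM8 at 0.195 ± 0.0253, CEACAM4 at 0.130 ± 0.0776, CEACAM6 at 0.0583 ± 0.0142 and CEACAM19 at 0.0461 ± 0.0215 RPKM, with CEACAM3 last at 0.00405 from 1 count. From CEACAM7 to CEACAM19 each neighbour differed from the next by less than the larger of their SDs. In GFP the order was CEACAM1 at 0.247 ± 0.0339 RPKM, CEACAM19 at 0.126 ± 0.00599 and CEACAM5 at 0.00709 from 2 counts in 1 library, with the other 6 at 0 counts. Of all 19737 protein-coding genes of the table, with those without counts included, 24.9% had a higher RPKM than CEACAM5 in PGC1A. For CEACAM1 the share was 33.6%.

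The switch from no counts to some was seen in few genes. Of 2691 protein-coding genes without counts in any GFP library, 93 (3.46%) had at least 3 counts in every PGC1A library. Among these 93 were CEACAM4, CEACAM6, CEACAM7, CEACAM8 and CEACAM21, which are 5 of the 6 listed CEACAM genes without GFP counts. Since the list was chosen on this contrast, nothing is read from that number. The 3 coding CEACAM genes outside the list showed no such rise. CEACAM16, of the inner ear, and CEACAM18 had no counts in any library. CEACAM20, of intestinal microvilli, had 6 counts in GFP and 0 in PGC1A, 1.62-fold above the PGC1A floor. That fold leaves out the counting error of the 6 counts, so no fall is read from it. Of 12 CEACAM pseudogene rows, 3 had no counts in any library. CEACAMP5 had 1 count over the GFP and 29 over the PGC1A libraries (ratio 35.7, 95% exact counting interval 5.92 to 1459). CEACAMP10 had 9 and 44 counts, with 34.9% of its exon bases inside PSG9.

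CEACAM genes are close relatives, so reads can fit more than 1 of them. Among all GENCODE 29 transcripts, 16.3% of the 50-base words of CEACAM5 also occur in another gene, and 2.64% occur in another of the 9 members. The gene that shared most with it was AC243967.1, an annotated coding gene on the same strand that covers 16.2% of the exon bases of CEACAM5 and 5.64% of those of CEACAM6 and had 0 counts in all libraries. For the other members the share of 50-base words found in any other gene was 0% for CEACAM7, 0.998% for CEACAM21, 1.54% for CEACAM4, 1.84% for CEACAM19, 3.29% for CEACAM1, 3.65% for CEACAM8, 4.02% for CEACAM3 and 6.99% for CEACAM6. With 100-base words the share was 12.6% for CEACAM5, 1.73% for CEACAM6 and at most 0.512% for the rest. Read length is not stated. Reads from shared stretches may be missing from these counts. The small counts of CEACAM3, CEACAM4, CEACAM6 and CEACAM8 remain uncertain, as the family holds far more abundant relatives. The gene that shared most 50-base words with CEACAM3 was CEACAM1, and with CEACAM8 it was CEACAM6.

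The promoters of the family are shown because most members were higher together and their promoter sequences are also alike. RefSeq promoters (GRCh38.p14, 250 bases before to 50 after the start) were found for 8 members, with 2 starts for CEACAM21, and CEACAM19 had no entry. Aligned bases of the promoters other than the first CEACAM21 start were 70.4% to 84.7% identical between pairs, highest for CEACAM7 and CEACAM5. The first CEACAM21 start was 57.7% to 66.7% identical to the others, while the second had 82.0% identity with CEACAM7. The promoters of CEACAM5 (chr19:41708376-41708675, plus strand) and CEACAM1 (chr19:42528432-42528731, minus strand), the most abundant members, read 5′ to 3′ as follows, with matches to the searched motifs in capitals.
CEACAM5: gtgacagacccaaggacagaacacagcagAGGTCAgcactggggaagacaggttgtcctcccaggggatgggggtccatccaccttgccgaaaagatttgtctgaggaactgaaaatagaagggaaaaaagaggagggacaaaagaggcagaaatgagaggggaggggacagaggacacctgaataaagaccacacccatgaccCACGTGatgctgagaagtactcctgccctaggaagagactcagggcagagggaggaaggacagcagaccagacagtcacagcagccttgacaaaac
CEACAM1: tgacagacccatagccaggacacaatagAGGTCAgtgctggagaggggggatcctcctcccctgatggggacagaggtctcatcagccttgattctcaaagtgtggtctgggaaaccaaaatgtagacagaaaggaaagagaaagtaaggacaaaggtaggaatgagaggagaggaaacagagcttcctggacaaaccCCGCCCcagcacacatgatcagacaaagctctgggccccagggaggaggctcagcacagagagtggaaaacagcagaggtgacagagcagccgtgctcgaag

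**Figure D2:**
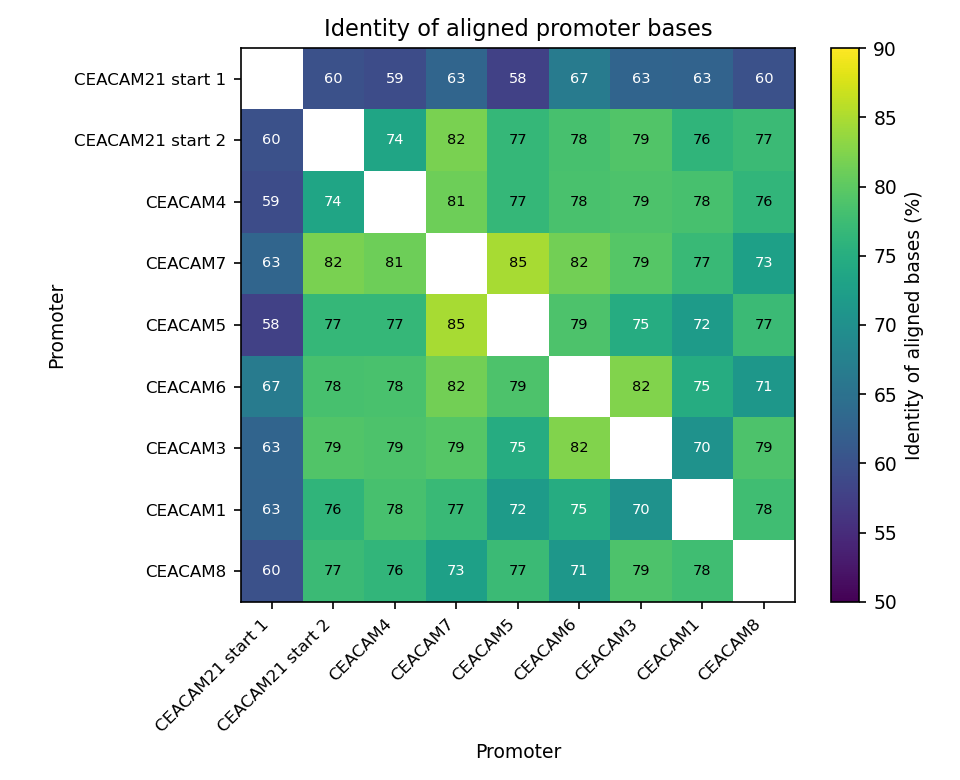
Percent identity of aligned bases between each pair of the 9 RefSeq promoters (300 bases) of 8 CEACAM genes; both axes list the promoters and the colour gives the identity. All pairs without the first CEACAM21 start lie between 70.4% and 84.7%, and the pairs with it between 57.7% and 66.7%.

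Both strands were searched for 5 motifs: AGGTCA (the hexamer that many nuclear receptors bind), TNAAGGTCA (its extended form for estrogen-related receptors, which contains the hexamer), CACGTG (the E-box of USF factors), GGGCGG (SP1) and TATAAA (the TATA box). AGGTCA was found in 6 of 8 members against 16.5% of all genes in the promoter table (13.8% of promoters), and TNAAGGTCA in 0 of 8 against 1.17% of genes. CACGTG was in 2 members (8.77% of genes), GGGCGG in 4 (48.3%) and TATAAA in 1 (14.0%). Since the promoters are copies of a common ancestor, the members are not independent, and a match is not a site. The hexamer of CEACAM5 begins 221 bases before the start, and the bases aligned with it are shown next, with these 6 bases in capitals and 12 bases on each side. This window was chosen after the sequences had been seen.
CEACAM5: agaacacagcagAGGTCAgcactggggaag
CEACAM7: agaacacagcatAGGTCAgcactgggaaag
CEACAM21 start 2: agaacacagcagAGGTCAgtactggggaga
CEACAM1: aggacacaatagAGGTCAgtgctggagagg
CEACAM6: cagacacagcagAGGTCCgtgctggggagg
CEACAM3: aaggcagagcagAGGTCCacgctggggagg
CEACAM8: tgtgcagaggttGGGTGAgagaatcactgc

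The windows lie at chr19:41708393-41708422 for CEACAM5, chr19:41688478-41688507 for CEACAM7, chr19:41575937-41575966 for CEACAM21, chr19:42528686-42528715 for CEACAM1, chr19:41755291-41755320 for CEACAM6, chr19:41796338-41796367 for CEACAM3 and chr19:42595100-42595129 for CEACAM8. The hexamer is intact in CEACAM1, CEACAM5, CEACAM7 and CEACAM21, which had 2449, 2412, 47 and 205 counts over the PGC1A group. CEACAM6 and CEACAM3 carry A6C, counted from 1 at the first base of the hexamer with the CEACAM5 base named first, and had 14 counts and 1 count. In CEACAM8 the aligned 6 bases begin 193 bases before the start, and the bases on each side are unlike those of CEACAM5. These 6 bases may thus not correspond to the hexamer, and no substitution is named. CEACAM8 had 39 counts, and its level did not separate from that of CEACAM7. The first CEACAM21 start differs at 5 of the 6 bases. The AGGTCA of CEACAM3 that counts among the 6 members lies elsewhere in its promoter. The hexamers of CEACAM4 also lie elsewhere (68 bases before and 13 bases after the start), and its bases did not align here. No test was made of the relation between these letters and the counts, the members were chosen for their rise, and which start the cells used was not measured.

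All but CEACAM19 lie within 1.05 Mb, and the 9 genes span 3134842 bases of chromosome 19. Within that span lie 68 other protein-coding genes that are neither CEACAM nor PSG genes. Of the 52 that were tested, 18 (34.6%) were higher and 28 (53.8%) lower in PGC1A by edgeR (log2 median −0.22), beside 40.9%, 42.1% and −0.03 over all genes. Among those that rose were TMEM145 (log2 fold change 3.34, SE 0.09) and LIPE, hormone-sensitive lipase (2.37, SE 0.08). PLAUR, the urokinase receptor, fell by 1.31, PRR19 fell by 1.28 and ZNF221 fell by 1.23 on the log2 scale. The adjusted p-values of these 5 genes ran from 2.8e-27 for PLAUR to 2.34e-05 for PRR19 (edgeR).

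Of the nearest coding genes that do not overlap a member, all but BCL3 had 13 counts or fewer in each group. ERICH4, which precedes CEACAM21, had 2 counts in GFP and 3 in PGC1A. LYPD4, after CEACAM3, had 0 and 1, and CXCL17, a chemokine gene before CEACAM1, had 6 and 4. CD177, a GPI-anchored neutrophil antigen beyond the PSG genes, had 0 counts in GFP and 13 in PGC1A. IGSF23, before CEACAM19, had 3 and 0. BCL3, after CEACAM19 and an IkB-family regulator, was tested and rose by 0.84 (SE 0.10, adjusted p = 9.05e-11, edgeR). PVR, a nectin-like adhesion receptor gene on the same strand, overlaps CEACAM19, shares 2.33% of its exon bases and shares more 50-base words with it than any other gene. GFP replicates 1 to 3 held 1671, 1944 and 2040 counts of PVR, against 995, 968 and 854 with PGC-1a. It fell by 0.71 (SE 0.04, adjusted p = 1.09e-21, edgeR), the direction seen for CEACAM19, and BCL3 went the other way. The part of PVR reads in the CEACAM19 counts was not tested. The 10 PSG genes, the pregnancy-specific glycoproteins of the same superfamily branch, lie between CEACAM8 and CD177. All 10 were called higher, beside 40.9% of all genes tested, with log2 fold changes from 3.11 for PSG4 upward. Fold changes of PSG genes with 0 to 3 GFP counts depend on the prior count of the fit. Such genes passed the count filter only through PGC1A, so nothing is read from the number of calls.

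**Figure D3:**
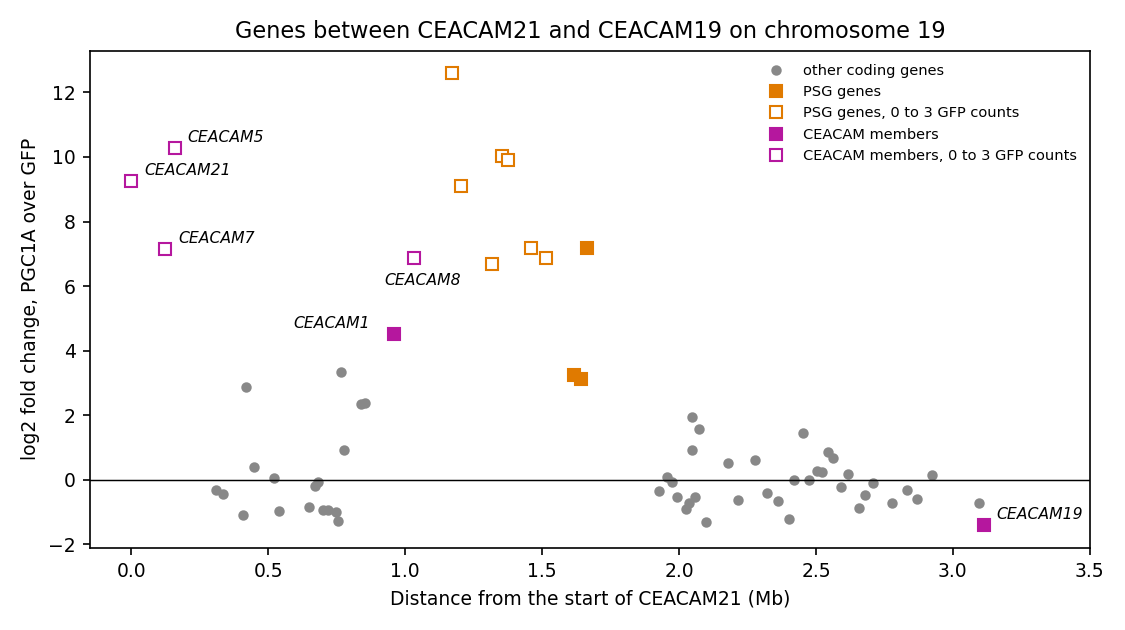
Log2 fold change (PGC1A over GFP) of the tested coding genes by distance in Mb from the start of CEACAM21, with CEACAM members in magenta, PSG genes in orange and other genes in grey. Open squares had 0 to 3 counts in GFP, so their height depends on the prior count of the fit and is no bound. The other genes lie between −1.31 and 3.34, and CEACAM19 at −1.41 stands apart from the other tested members.

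Of 21 tested genes for signalling and adhesion partners of CEACAM proteins, 7 (33.3%) were higher and 12 (57.1%) lower, beside 40.9% and 42.1% over all genes tested; the median change was −0.25 on the log2 scale (−0.03 over all genes). With a filter of 1 CPM in 3 libraries, 4 were higher. FGR, HAVCR2 and PTPN6 passed the count filter only through PGC1A, so the share called higher is shaped by the filter. The kinase gene SRC, which phosphorylates CEACAM1, had 1969, 2545 and 2694 counts in GFP and 552, 551 and 488 in PGC1A, and fell by 1.88 (SE 0.04, adjusted p = 9.25e-38, edgeR). EGFR fell by 1.45 (SE 0.03) and the adaptor gene SHC1 fell by 1.43 (SE 0.03). INSR, the insulin receptor, whose uptake CEACAM1 is known to promote in liver, stood at 14.6 ± 0.557 CPM in the GFP libraries and at 85.2 ± 0.983 with PGC-1a, a rise of 2.55 on the log2 scale (SE 0.04, edgeR adjusted p = 2.36e-44). The Src-family kinase gene FGR, of myeloid cells, went from 1 count over the GFP libraries to 22, 24 and 36 in PGC1A (ratio 101, 95% exact counting interval 17.6 to 4038).

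The phosphatase genes that the ITIMs of CEACAM1 recruit were unlike in level. PTPN11 (SHP-2) was at 221 CPM in GFP and 227 in PGC1A and did not pass (log2 fold change 0.04, adjusted p = 0.140, edgeR); its sign turned with total counts (−0.29) and with upper-quartile factors (−0.09), and it passed with both, as it did in the upward direction with DESeq2-type size factors and the DESeq2 Wald test (0.08 each). PTPN6 (SHP-1), of blood and epithelial cells, had 33 counts in GFP and 45 in PGC1A; its 0.74 (SE 0.34, adjusted p = 0.0425, edgeR) did not hold under 8 of 12 alternatives. HAVCR2 (TIM-3), a ligand of CEACAM1 on T cells, had 5, 11 and 6 counts in GFP and 12, 13 and 17 in PGC1A, and rose by 1.22 (SE 0.37, adjusted p = 0.00261, edgeR). SYK, the kinase that binds phosphorylated ITAMs, fell by 0.39 (SE 0.11, adjusted p = 0.00148, edgeR).

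Of 25 tested genes that make or attach the GPI anchor which CEACAM5, CEACAM6, CEACAM7 and CEACAM8 carry, 10 (40.0%) were higher and 9 (36.0%) lower, close to the share over all genes, with a median of −0.01. PIGV, a mannosyltransferase of the pathway, rose by 1.46, PIGS, a subunit of the transamidase that attaches the anchor, by 1.07 and PIGO by 0.98 (log2). PGAP1, which remodels the anchor after attachment, fell by 1.64, DPM2 fell by 0.75 and PIGL fell by 0.62. The split depends on the scaling, with 14 lower under upper-quartile factors and 17 under total counts. Adjusted p-values of the 6 named genes were 1.62e-09 or less (edgeR).

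Of 10 tested transcription factor genes known to act on CEACAM promoters, 1 (10.0%) was higher and 8 (80.0%) lower, beside 40.9% and 42.1% over all genes tested (median −0.31 against −0.03). Those lower numbered 6 with DESeq2-type size factors, without a filter and with DESeq2, and 6 to 8 with single libraries left out. With upper-quartile factors or total counts they numbered 9. USF2 (−0.08, adjusted p = 0.0474, edgeR) and IRF2 (−0.15, adjusted p = 0.0349, edgeR) were small falls near the threshold. The one that rose was HNF4A, a nuclear receptor of liver and gut epithelium, with 1, 3 and 4 counts in GFP and 165, 158 and 148 in PGC1A (log2 fold change 6.11, SE 0.24, adjusted p = 1.57e-28, edgeR). SMAD3 fell by 1.21, SMAD4 by 0.95 and SP1 by 0.73 on the log2 scale. The intestinal factors CDX1 and CDX2 had 9 and 1 counts in GFP and 3 each in PGC1A and were not tested. HNF4A passed the count filter only through PGC1A, so nothing is read from its call. Whether HNF4A has a part in the levels of the CEACAM genes was not tested.

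**Figure D4:**
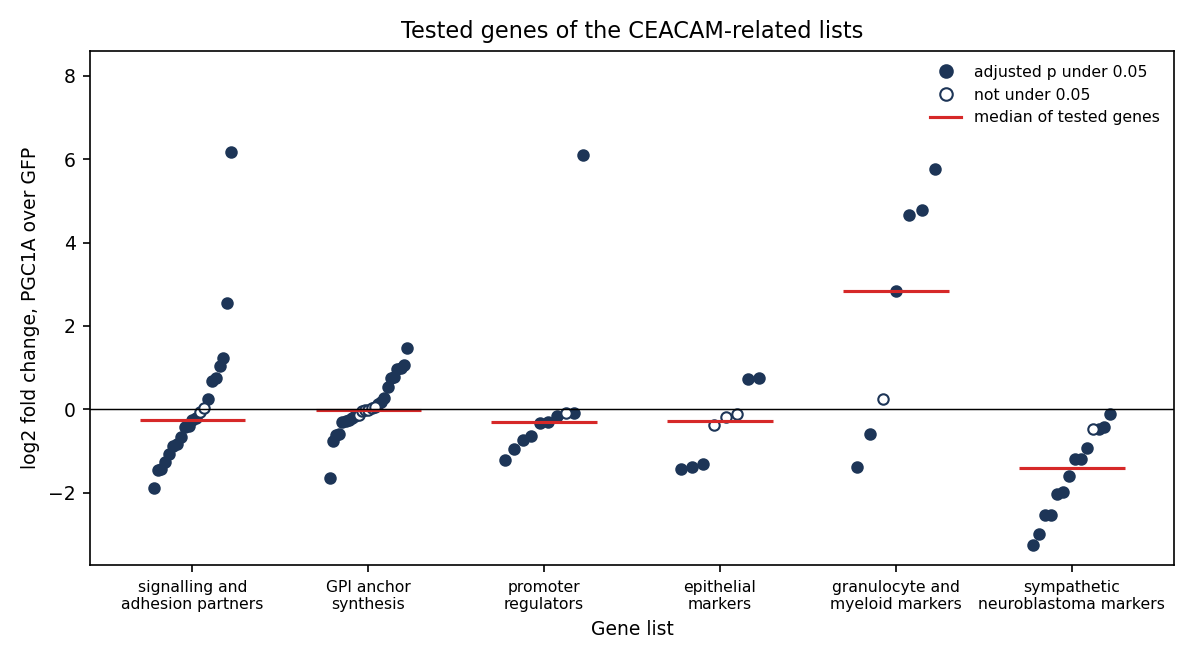
Log2 fold change (PGC1A over GFP) of each tested gene of 6 lists, with filled points for an adjusted p under 0.05 (edgeR) and the median of the tested genes as a red line. The partner, GPI anchor, regulator and epithelial medians lie between −0.31 and −0.01, the granulocyte and myeloid median is 2.83 over 7 tested genes, and the neuroblastoma median is −1.40. Of the 7 myeloid genes, the 4 called higher passed the count filter through PGC1A alone, which shapes that median.

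Markers of cell types in which CEACAM genes are known were read beside these levels. Of 20 epithelial markers, 8 were tested, with 2 (25.0%) higher and 3 (37.5%) lower, beside 40.9% and 42.1% over all genes (median −0.28), and their summed level was 45.5 to 48.7 CPM in GFP and 50.6 to 55.1 in PGC1A. The keratin gene KRT18 rose by 0.74, from a mean of 23.1 CPM in GFP to 38.6 CPM in PGC1A, more in CPM than the sum did. KRT19 fell by 1.44, CLDN4, a tight junction gene, fell by 1.39 and MUC1 fell by 1.31. CLDN3 was at 0.73 and lost its call under 10 of 12 alternatives. Without PGC1A replicate 1 the counts were 1 higher and 5 lower, and without PGC1A replicate 3 they were 1 and 4. The defining epithelial genes CDH1 (6 and 13 counts in GFP and PGC1A), GRHL2 (5 and 1) and ELF3 (9 and 9) were near 0 in both groups, and EPCAM was at 1.67 and 1.28 CPM. Other markers with too few counts to be tested went both ways. LGALS4 had 15 counts in GFP and 29 in PGC1A, while CDH17 had 25 and 6, CLDN7 33 and 9 and KRT7 19 and 5.

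Of 18 granulocyte and myeloid markers, 7 were tested, with 4 (57.1%) higher and 2 (28.6%) lower, beside the same 40.9% and 42.1% (median 2.83), and their summed level was 4.95 to 5.42 CPM in GFP and 26.1 to 29.3 in PGC1A. ITGAM and ITGB2, the chains of an integrin of myeloid cells, rose by 5.77 (SE 0.19) and 4.65 (SE 0.18), SPI1, the myeloid transcription factor PU.1, by 4.78 (SE 0.34) and PTPRC (CD45) by 2.83 (SE 0.27), with adjusted p of at most 1.19e-13 (edgeR). AZU1 fell by 1.39 and FUT4 by 0.58. The 4 higher genes passed the count filter only through the PGC1A libraries, and AZU1 passed only through GFP. The shares and the median of this list are thus shaped by the filter, and nothing is read from them. The defining granulocyte genes S100A8, S100A9, S100A12, FCGR3B and CTSG had no counts in any library, and MPO and ELANE had 1 count each. PRTN3, a neutrophil granule protease gene of the same list, had no counts in GFP and 10, 10 and 9 in PGC1A, 11.9-fold above the floor of 3 counts over the GFP group. CSF3R, also not tested, went the other way, with 12 counts in GFP and 1 in PGC1A (ratio 0.103, 95% exact counting interval 0.0024 to 0.694). Of 14 trophoblast markers, 8 were tested, with 4 of 8 higher and 2 of 8 lower, beside 40.9% and 42.1% over all genes (median 0.54): PSG1 and PSG4, the hormone subunit gene CGA (4.30) and CYP19A1 (1.00, adjusted p = 0.0186, edgeR) were higher, the last with its call lost under 3 of 12 alternatives (without GFP replicate 1, total counts and DESeq2), while GATA3 fell by 0.46 and HLA-G, whose call was lost under 3 alternatives, by 0.62; CSH1 and HSD3B1 had no counts. PSG1 and CYP19A1 passed the count filter only through PGC1A. ERVFRD-1, a syncytin gene, had too few counts to be tested, 3 in GFP and 18 in PGC1A (ratio 7.39, 95% exact counting interval 2.16 to 39.2). The syncytin gene ERVW-1 was tested and did not pass (40 and 34 counts, log2 fold change 0.07, adjusted p = 0.86, edgeR). Neither did TFAP2A (0.09, adjusted p = 0.811, edgeR), and GCM1, not tested, had 11 counts in GFP and 5 in PGC1A. The part of these marker genes in the CEACAM result was not tested.

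Among 14328 other protein-coding genes tested, the 5 with the levels most like those of CEACAM1 over the 6 libraries were ABCG4, NUDT8, CRYM, TMC4 and SIDT1. Their log2 CPM differed from that of CEACAM1 by a root mean square of 0.189, 0.220, 0.229, 0.266 and 0.276. ABCG4, a sterol transporter gene, was at 1.43 CPM in GFP and 34.7 in PGC1A, and CRYM, for the thyroid hormone-binding mu-crystallin, at 1.25 and 27.3 CPM.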

How the data were processed

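Poly(A) RNA of 6 SH-SY5Y libraries (3 GFP, 3 PGC1A) was sequenced, and the authors deposited raw read counts per gene in 1 table. STAR 2.6.0c, HTSeq 0.10.0, DESeq2 1.20.0, DRAGEN and GRCh38 are named, without order or settings, per the submitters' processing notes; neither source states the annotation release or strand setting. Summary lines of HTSeq (28.8% to 31.0% of each column) were kept out of library sizes. Library totals set the precision. The 95% exact intervals cover counting error only, and a floor of 3 counts covers only that of the group without counts.

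Identifiers were matched to GENCODE 29 (GRCh38) without their version. edgeR 4.0.16 (R 4.3.3) was run on all genes with TMM factors, filterByExpr (minimum count 10, total 15), robust glmQLFit and glmQLFTest, group as the only term, Benjamini-Hochberg adjustment and a two-sided threshold of 0.05. A gene low in 1 group could pass the filter through the other group alone. SE is the size of the log2 fold change over the square root of its F. The procedure was checked on simulated counts. RPKM used union exon lengths. Promoters came from RefSeq and were aligned with Biopython 1.88. Alternatives were other scalings, filters, DESeq2 1.42.0, a replicate block and leaving out single libraries.

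The members and all lists (partners, GPI anchor, promoter regulators, epithelial, granulocyte and myeloid, trophoblast, neuroblastoma) were chosen with earlier results of these data known. Named genes were the members and other coding CEACAM genes, up to 3 rises and 3 falls of each list past the threshold, PTPN6, PTPN11, SYK, HAVCR2 and nearest coding neighbours. The 5 genes closest to CEACAM1, the member with the highest mean CPM in PGC1A, were named too. Other genes of a list are named after their values were seen, to show levels. Some genes that this rule names are not reported here.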

Additional observations from a re-analysis of the deposited data

How the results depend on the processing

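The count of CEACAM genes whose groups did not overlap, the directions of CEACAM1 and CEACAM19, and the partner, regulator and interval totals kept within 1.5 times their values under all alternatives run. Total counts gave CEACAM1 a log2 fold change of 4.19 and PGC1A means of 27.8 CPM for CEACAM1 and 27.4 for CEACAM5, and upper-quartile factors gave CEACAM5 29.4 CPM; these scalings moved the median of all genes by −0.33 and −0.13 (log2). Leaving out single libraries gave 30.4 to 33.0 CPM for CEACAM1 and 29.9 to 31.8 for CEACAM5. The sign of PTPN11 turned with upper-quartile factors (−0.09) and total counts (−0.29). GPI anchor genes called lower numbered 14 with upper-quartile factors and 17 with total counts, against 9. Epithelial markers called higher fell from 2 to 1 with upper-quartile factors, total counts, the 1 CPM filter and DESeq2, and those called lower numbered 5 with both scalings and without a filter. Over single libraries left out, these were 1 to 2 higher and 4 to 5 lower, against 3. With the 1 CPM filter, which tests fewer genes, 3 epithelial markers in all, 4 partners higher and 1 myeloid marker lower were called. Other causes were not tested.

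The replicate numbers did not pair the libraries: correlations of same-numbered deviations were −0.0114, 0.00628 and 0.0109, and not every library correlated best with its own number. With the replicate block, 16071 genes were called against 16057, and CEACAM1 stayed at 4.52. Depth limits CEACAM3, CEACAM4 and CEACAM6, which had 1 to 14 counts in all.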
